A study of Mus musculus with 6 samples.

Results

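The guanylate-binding proteins (GBPs) and immunity-related GTPases (IRGs) were followed in lymph node mast cells of mice, in nodes that held tumour metastases (mLN, 3 libraries) and in uninvolved nodes (uLN, 3 libraries). The members were 6 GBP genes (Gbp2, Gbp3, Gbp4, Gbp5, Gbp6 and Gbp7) and 4 IRG genes (Irgm1, Irgm2, Igtp and Iigp1), taken by gene symbol, and all 10 were found among the 17890 genes of the deposited count table. No source used here gives the strain, age, genotype or tumour of the mice or the way the cells were isolated. Nor do the labels say that the libraries of a group came from separate animals, so each p-value reflects library-to-library spread and this may be purely technical.

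GBPs and IRGs are GTPases of cell-autonomous immunity whose genes are classic targets of interferon gamma, through GAS elements and ISRE elements in their promoters. GBPs coat membranes around intracellular bacteria and parasites and help to trigger inflammasomes. Among IRGs, the effector proteins load onto the pathogen vacuole, and the regulatory IRGM proteins keep the effectors inactive on the membranes of the host cell. Most of this is known from mouse macrophages and fibroblasts.

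The members did not move as 1 block in mLN mast cells. Gbp4 and Gbp6 rose 9.67-fold and 5.35-fold, Gbp5 and Gbp3 rose 2.28-fold and 1.99-fold, and Gbp7 rose 1.36-fold, while Gbp2 fell by 0.56 on the log2 scale. The IRG members differed little between the groups. Irgm1 rose 1.14-fold, Irgm2 fell by 0.29 on the log2 scale, Igtp was not called (log2 fold change of -0.09 ± 0.09, SE), and Iigp1 had at most 2 reads in any library. A call here means an edgeR quasi-likelihood p below 0.05 after Benjamini-Hochberg adjustment over the 12706 genes that passed the expression filter.

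That filter kept 9 of the 10 members and removed Iigp1. Of the 9 members, 6 were called higher and 2 lower in mLN, against 33.2% and 34.2% of all tested genes, and calls in either direction took in 67.4% of tested genes. The 2 groups of libraries did not overlap in 7 of the 9 members, where 72.9% of tested genes did not overlap. With so many genes called, a count of calls says little about these members, and the size of the change separates them better. In a test of whether the fold was over 1.5, added after the data were seen, Gbp4, Gbp6 and Gbp5 passed (3 of 9), against 11.8% of tested genes in that direction and 21.0% in either. No member passed downward, where 9.2% of tested genes did. A rise of at least 5-fold, a cutoff not fixed in advance, was seen in Gbp4 and Gbp6, and in 1.9% of tested genes. The median log2 fold change was 0.45 over the 9 members and -0.01 over all tested genes.

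Sequence upstream of the members was read from the RefSeq promoter table (GRCm38.p6), which holds windows for 7 of the 10 members. Gbp4, Gbp6 and Iigp1 have none there. In the 250 bases before each annotated start, 2 motifs were searched on both strands by exact letters, the ISRE core GAAANNGAAA and the GAS core TTCNNNGAA. An ISRE core was found in 7 of the 8 member windows (Gbp3 has 2 windows), against 2.98% of all 32851 windows of the table, and a GAS core in 4 of 8, against 7.02%. Windows with an ISRE core belonged to members that rose (Gbp5, Gbp3, Gbp7 and Irgm1), to members that fell (Gbp2 and Irgm2) and to Igtp, which was not called. Shown here are Gbp5, the member with the largest rise among those with a window, Gbp2, which fell, and the neighbours Igtp and Irgm2. Each is written 5′ to 3′ on the gene's strand, with motif matches in capitals. The windows are chr3:142496684-142496933 (plus strand) for Gbp5, chr3:142620413-142620662 (plus) for Gbp2, chr11:58199306-58199555 (plus) for Igtp and chr11:58214727-58214976 (plus) for Irgm2.
Gbp5: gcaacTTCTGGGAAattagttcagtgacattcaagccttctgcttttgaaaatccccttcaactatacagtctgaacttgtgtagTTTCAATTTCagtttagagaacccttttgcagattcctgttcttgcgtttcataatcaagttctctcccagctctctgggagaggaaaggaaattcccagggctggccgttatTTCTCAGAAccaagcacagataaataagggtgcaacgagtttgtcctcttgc
Gbp2: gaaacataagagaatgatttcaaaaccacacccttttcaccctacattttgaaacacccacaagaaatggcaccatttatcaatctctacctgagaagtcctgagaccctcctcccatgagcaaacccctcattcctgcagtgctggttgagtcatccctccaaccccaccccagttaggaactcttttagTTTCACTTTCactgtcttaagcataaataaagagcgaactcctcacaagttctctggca
Igtp: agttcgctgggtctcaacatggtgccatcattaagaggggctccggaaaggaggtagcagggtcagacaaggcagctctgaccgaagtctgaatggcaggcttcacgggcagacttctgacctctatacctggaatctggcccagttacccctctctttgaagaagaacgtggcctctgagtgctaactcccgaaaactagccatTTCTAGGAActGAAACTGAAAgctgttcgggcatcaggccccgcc
Irgm2: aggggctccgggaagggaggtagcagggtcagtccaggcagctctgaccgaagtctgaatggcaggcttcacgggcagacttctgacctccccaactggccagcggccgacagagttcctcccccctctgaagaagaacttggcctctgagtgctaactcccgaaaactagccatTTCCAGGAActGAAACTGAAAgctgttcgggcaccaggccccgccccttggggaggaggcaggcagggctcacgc

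The ISRE core match began 59 bases before the start in Gbp2 (TTTCACTTTC, the motif read on the other strand) and 165 bases before it in Gbp5 (TTTCAATTTC). Gbp5 also had a GAS core 245 and 52 bases before the start. Igtp and Irgm2 carried the same ISRE core (GAAACTGAAA), 34 and 64 bases before the start. Their windows also shared an exact run of 55 bases, which lay upstream of the GAS and ISRE cores and held neither. In both windows a GAS core was followed after 2 bases by the ISRE core. That arrangement, noticed after the windows were seen, was found in 5 of the 32851 windows (0.0152%), those of Igtp, Irgm2, Tgtp1, Tgtp2 and Gm12185, all in the IRG family. Among these genes Irgm2 and Tgtp2 were lower in mLN, Igtp and Gm12185 were not called, and Tgtp1 was not tested. These matches describe the letters of the reference and do not show binding.

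The GBPs of chromosome 5 had the largest changes. Gbp4 (gene ID 17472, chromosome 5, 105115767 to 105139586 in GRCm38, minus strand), which in mouse cells has been described as a brake on IRF7, had 142, 147 and 164 CPM (counts per 1e6 reads after TMM normalisation) in mLN replicates 1, 2 and 3, against 16.5, 15.03 and 15.3 CPM in uLN replicates 1, 2 and 3. Every mLN library lay far above every uLN library, and the groups did not overlap. The means were 151 ± 11.7 CPM in mLN and 15.6 ± 0.800 CPM in uLN (SD, n = 3 each), a log2 fold change of 3.27 ± 0.07 (SE, adjusted p = 8.62e-10 in edgeR's quasi-likelihood test). A fold change at or above that of Gbp4 was found in 65 called genes, Gbp4 included.

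Gbp6 (gene ID 100702, chromosome 5, 105270702 to 105295871, minus strand), a GBP that helps to restrict intracellular bacteria in mouse macrophages, was the most abundant member in mLN. It had 209, 215 and 192 CPM in mLN replicates 1, 2 and 3, against 36.3, 37.0 and 41.8 CPM in uLN. All mLN libraries were well above all uLN libraries. The mean was 205 ± 12.4 CPM in mLN and 38.4 ± 2.99 CPM in uLN (SD, n = 3 each), a log2 fold change of 2.42 ± 0.07 (SE, adjusted p = 2.86e-09 in the same test). Gbp4 and Gbp6 together made up 59.2 ± 0.661% of the summed CPM of the 10 members in mLN and 19.2 ± 0.718% in uLN (SD, n = 3 each).

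The other Gbp genes of that cluster followed the same direction. Gbp8 had 278, 256 and 319 reads in mLN libraries and 27.1, 24.6 and 31.5 in uLN libraries, a 9.92-fold rise. Gbp9 had 366, 399 and 355 reads in mLN and 76.0, 77.0 and 64.5 in uLN, a 5.03-fold rise. Gbp10 was scarce, with 29.3, 43.2 and 20.3 reads in mLN and 12.7, 0 and 8.57 in uLN, a fitted log2 fold change of 2.01 ± 0.62 (SE). Without mLN replicate 2 that value was 1.69 and the call was lost (adjusted p = 0.0590 in edgeR's quasi-likelihood test), and it was 2.70 without uLN replicate 1 and 1.43 without uLN replicate 2, both called. So all 5 rows of the cluster in the table were called higher, where 33.2% of tested genes were.

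These paralogs are alike in sequence and reads can be shared between them. Of all 100-base stretches of the Gbp6 transcripts in GENCODE M21, 82.9% also occur in transcripts of some other gene, 82.9% in the predicted model Gm43302 and 44.2% in Gbp10, so the separate values of Gbp6 and Gbp10 are uncertain. For Gbp4 the share found in any other gene was 2.62%, and for Gbp8 and Gbp9 it was 3.81% and 2.01%. With 50-base stretches the shares of Gbp4, Gbp8 and Gbp9 were larger, at 11.9%, 21.2% and 9.56%. Shorter reads would thus leave their separate values less certain, that of Gbp8 most. The counts of Gbp4 and Gbp6 were not whole numbers in any of the 6 libraries, so they are estimates rather than tallies of whole reads. When the 5 rows were summed to 1, the sum was 395 ± 6.67 CPM in mLN and 60.1 ± 2.72 CPM in uLN (SD, n = 3 each), a 6.57-fold rise. The sum is free of how reads were divided among these 5 rows, but not of reads shared with Gm43302 or Gbp11, which were not analysed here.

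**Figure D1:**
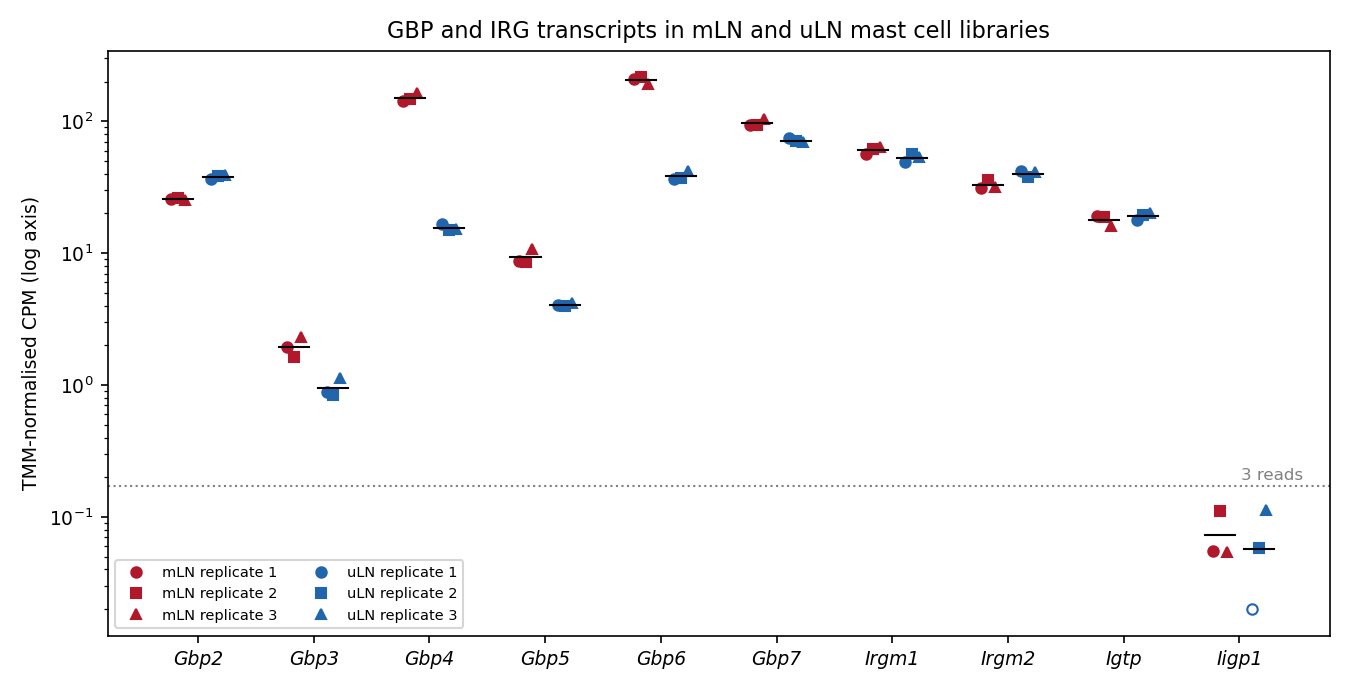
Level of each member in every library, as TMM-normalised CPM on a log axis, with mLN left of uLN, 1 symbol per replicate and a bar at the group mean. Gbp4 and Gbp6 are far apart between the groups, Gbp2 and Irgm2 are lower in mLN, and Iigp1 lies under the dotted line at 3 reads (the open symbol at the bottom stands for 0 reads).

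The GBPs of chromosome 3 changed less and not in 1 direction. Gbp5 (gene ID 229898, chromosome 3, 142496934 to 142522344, plus strand), which promotes NLRP3 inflammasome assembly in mouse macrophages, had 8.66, 8.51 and 10.7 CPM in mLN replicates 1, 2 and 3, against 4.02, 3.98 and 4.17 CPM in uLN. The groups did not overlap, and mLN replicate 3 was the highest. The log2 fold change was 1.19 ± 0.14 (SE, adjusted p = 2.83e-05 in edgeR's quasi-likelihood test).

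Gbp3 (gene ID 55932, chromosome 3, 142560016 to 142573213, plus strand) was near the lower end of what could be measured. It had 35.2, 29.5 and 40.2 reads in mLN and 15.6, 14.8 and 19.8 reads in uLN, with no overlap. Its log2 fold change of 0.99 ± 0.27 (SE, adjusted p = 0.00691 in the same test) has the widest error of the 9 tested members. Gbp7 (gene ID 229900, chromosome 3, 142530336 to 142550151, plus strand), which brings NADPH oxidase subunits to phagosomes in mouse macrophages, had 94.5, 94.2 and 104 CPM in mLN and 74.4, 70.8 and 69.2 CPM in uLN. Its rise was small next to those of Gbp4 and Gbp6, yet no uLN library reached the lowest mLN library.

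Gbp2 (gene ID 14469, chromosome 3, 142620663 to 142638008, plus strand), a prenylated GBP that goes to pathogen vacuoles and bacterial surfaces, went the other way. It had 25.7, 26.1 and 25.1 CPM in mLN replicates 1, 2 and 3, against 36.3, 38.4 and 39.0 CPM in uLN. Replicates were tight and the groups were apart. The mean was 25.7 ± 0.527 CPM in mLN and 37.9 ± 1.43 CPM in uLN (SD, n = 3 each), a log2 fold change of -0.56 ± 0.06 (SE, adjusted p = 1.6e-05 in the same test). Its counts were whole in all 6 libraries and 0% of its 100-base stretches occur in transcripts of another gene (2.07% of its 50-base stretches). Summed over Gbp2, Gbp3, Gbp5 and Gbp7, the chromosome 3 rows gave 134 ± 6.40 CPM in mLN and 114 ± 1.07 CPM in uLN (SD, n = 3 each), a 1.17-fold rise, so the sum hides the fall of Gbp2.

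**Figure D2:**
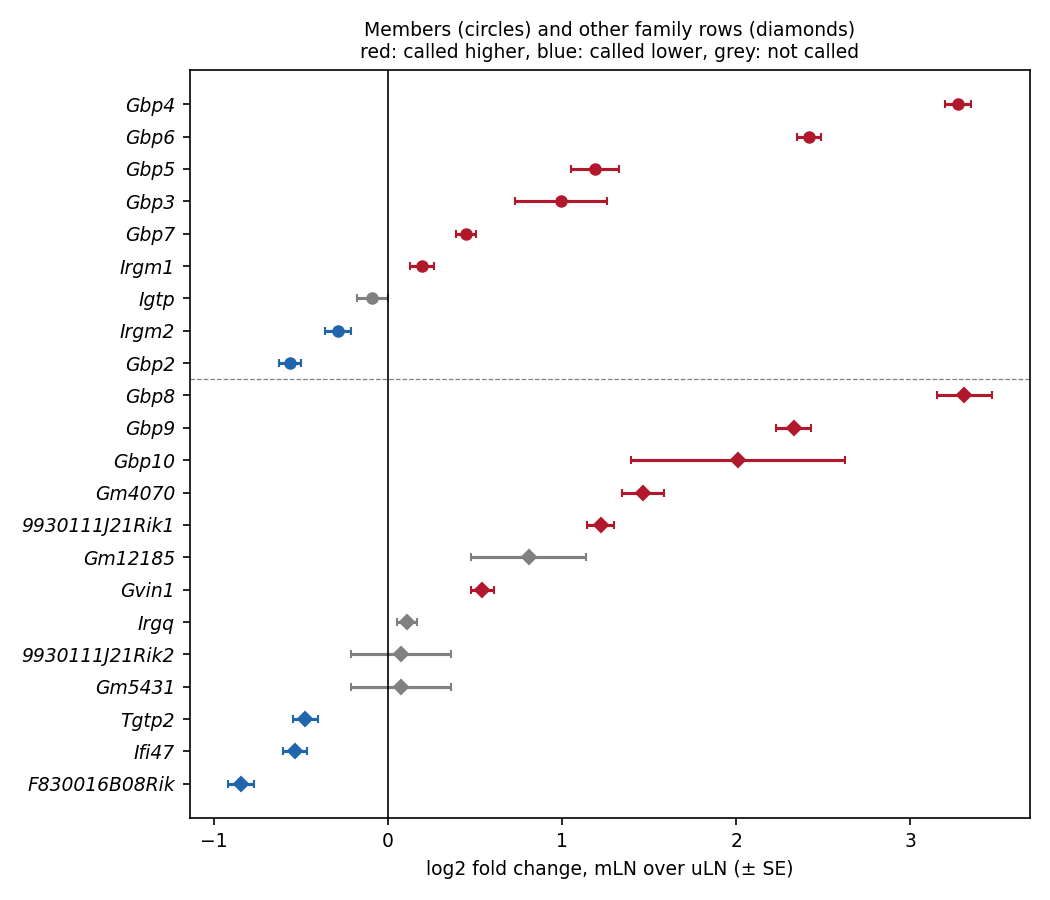
Fold change of the 9 tested members (circles) and of 13 tested relatives (diamonds), as log2 of mLN over uLN with its standard error. The genes run from Gbp4 and Gbp8, at 3.27 and 3.31, down to Gbp2 at -0.56 and F830016B08Rik at -0.84.

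Genes next to the clusters were looked at after the fold changes were seen. At the chromosome 5 cluster, Abcg3, which starts at 104935057 and ends 29.7 kb before the first Gbp row, rose 5.65-fold, with 8.95 ± 0.320 CPM in mLN and 1.58 ± 0.472 CPM in uLN (SD, n = 3 each). It encodes an ABC transporter family protein. Beyond it Zfp951 was not called (log2 fold change of 0.17 ± 0.19, SE). On the other side Lrrc8b, 119 kb away, fell by 0.35 on the log2 scale, and Lrrc8c was not called (-0.02 ± 0.07, SE). Around the chromosome 3 cluster, Kyat3, 63.0 kb beyond Gbp2, fell by 0.82 on the log2 scale like Gbp2, and Gtf2b further on was not called (-0.09 ± 0.07, SE). Pdlim5, on the far side, rose by 0.19. Beside Irgm1 on chromosome 11, Trim7, 14.1 kb away, rose 2.88-fold and Trim41 1.24-fold. Psme2b, on the other side, was not called (log2 fold change of -0.31 ± 0.33, SE). Beside Igtp, the nearby Mrpl22 fell by 0.28 on the log2 scale and Gemin5 was not called (0.19 ± 0.10, SE). Zfp692, beyond Irgm2, rose 1.28-fold.

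**Figure D3:**
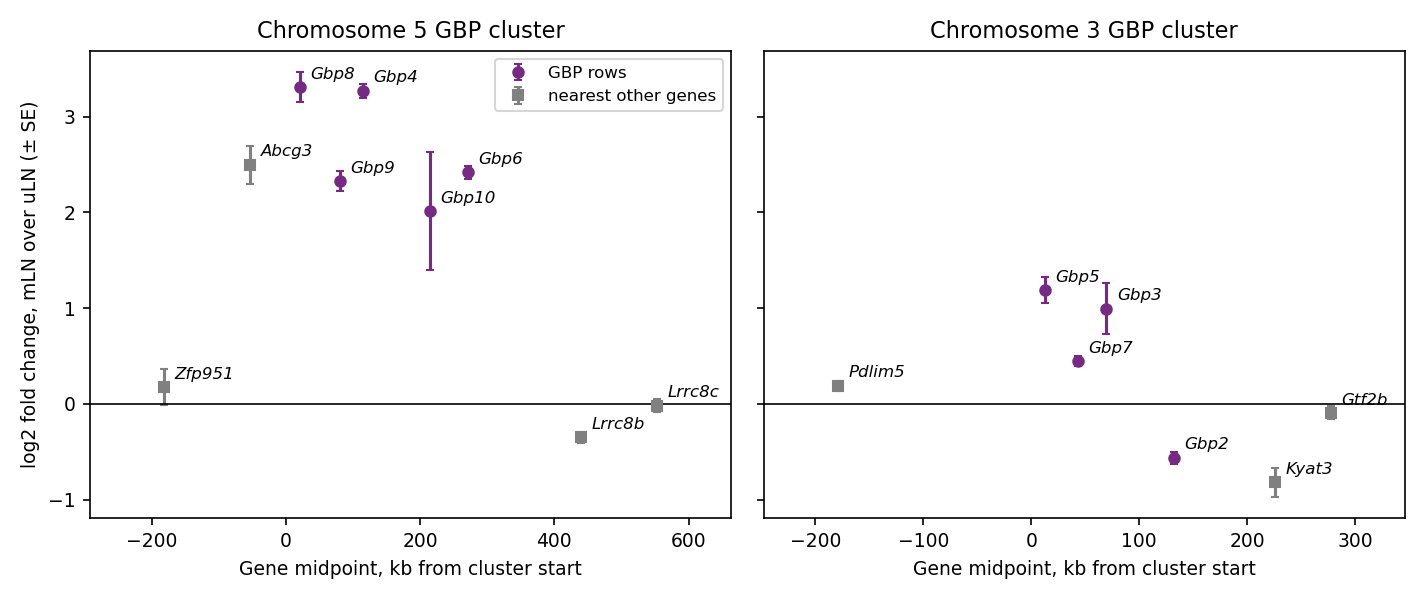
Log2 fold change (mLN over uLN, with standard error) of the GBP rows and of the nearest other protein-coding genes, against the distance of each gene's midpoint from the start of the cluster in kb. All 5 chromosome 5 rows and Abcg3 lie at or above 2.01, whereas the chromosome 3 rows run from 1.19 at Gbp5 to -0.56 at Gbp2.

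The regulatory IRGs were nearly level between the groups. Irgm1 (gene ID 15944, chromosome 11, 48865245 to 48871420, minus strand), which sits on the Golgi, phagosomes and mitochondria, had 56.5, 61.8 and 63.9 CPM in mLN and 48.9, 56.8 and 53.5 CPM in uLN. The groups overlapped. Its log2 fold change was 0.19 ± 0.07 (SE, adjusted p = 0.0291 in edgeR's quasi-likelihood test), and the call was lost without uLN replicate 1, uLN replicate 3 or mLN replicate 2 (adjusted p = 0.148, 0.0868 and 0.0846), as well as when lowly expressed genes were kept (adjusted p = 0.0711).

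Irgm2 (gene ID 54396, chromosome 11, 58214977 to 58222783, plus strand), a Golgi-bound regulator, had 31.1, 35.9 and 31.6 CPM in mLN and 41.6, 37.6 and 41.1 CPM in uLN. The groups were apart by a small margin, between mLN replicate 2 and uLN replicate 2 (log2 fold change of -0.29 ± 0.07, SE, adjusted p = 0.0054 in the same test). Igtp (gene ID 16145, chromosome 11, 58199556 to 58207592, plus strand), also called Irgm3 and found on the endoplasmic reticulum and lipid droplets, had 19.0, 18.9 and 16.0 CPM in mLN and 17.9, 19.4 and 20.1 CPM in uLN. These values overlapped (adjusted p = 0.395 in the same test). Igtp and Irgm2 share 5.16% of the 100-base stretches of Igtp and 11.8% of its 50-base stretches.

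The effector Iigp1 (gene ID 60440), a GTPase that loads onto the vacuole of Toxoplasma in mouse cells, had 1.01, 1.99 and 0.95 reads in mLN and 0, 1.03 and 1.97 reads in uLN, all under the floor of 3 reads, which is 0.164 to 0.172 CPM per library, so no difference was detectable at this depth. Ifi47, another effector, had 15.3 ± 0.190 CPM in mLN and 22.2 ± 0.731 CPM in uLN (SD, n = 3 each), a fall of 0.54 on the log2 scale (log2 fold change -0.54). Tgtp2 fell by 0.47 on that scale, but 80.4% of its 100-base stretches occur in transcripts of other genes, mainly of its copy Tgtp1. F830016B08Rik, a further IRG family row, fell by 0.84. The summed IRG level of 7 rows (the 4 members, Tgtp1, Tgtp2 and Ifi47) was 155 ± 7.19 CPM in mLN and 173 ± 3.30 CPM in uLN (SD, n = 3 each), a log2 fold change of -0.16 ± 0.05 (SE). The 4 members alone were nearly level, at 111.7 ± 5.04 CPM in mLN and 112.4 ± 3.45 CPM in uLN (SD, n = 3 each). The 7-row sum depends on the rows chosen. It leaves out F830016B08Rik, which fell, and the family row 9930111J21Rik1, which rose 2.33-fold.

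Of 24 further family names listed, 17 had a row and 13 were tested, of which 6 were higher and 3 lower in mLN. That is 69.2% called, where 67.4% of all tested genes were. Besides Gbp8, Gbp9 and Gbp10 the higher ones were 9930111J21Rik1 (2.33-fold), Gvin1 (1.46-fold) and Gm4070 (2.76-fold). Gvin1 encodes a very large interferon-inducible GTPase. Gvin1 and Gm4070 share 97.8% and 96.6% of their 100-base stretches with other genes, so their separate values are uncertain. The same holds for 9930111J21Rik1, which shares 70.5% of its stretches with other genes, mainly 9930111J21Rik2. Gm12185, Gm5431, 9930111J21Rik2 and Irgq were tested and not called, although Gm12185 (adjusted p = 0.0508 in edgeR's quasi-likelihood test) was called higher under 6 alternatives, with adjusted p down to 0.0161, and Irgq (log2 fold change of 0.11) under 2, with adjusted p of 0.0415 for library totals only and 0.0496 for the filter of 5 CPM.

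Per length of the longest RefSeq-matched transcript, the order of the members changed between the groups. In mLN Gbp6 led at 78.9 ± 4.75 RPKM (CPM per kb of transcript, SD, n = 3), then Gbp4 at 33.3 ± 2.58, Irgm1 at 26.9 ± 1.69, Gbp7 at 17.4 ± 0.954 and Gbp2 at 10.2 ± 0.209. Irgm2 and Igtp came next at 9.51 ± 0.765 and 8.89 ± 0.850 RPKM, followed by Gbp5 at 3.04 ± 0.403, Gbp3 at 0.730 ± 0.125 and Iigp1 near 0. The libraries of Gbp2 and Irgm2, and those of Irgm2 and Igtp, overlapped in mLN, so those neighbours were not separated.

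In uLN Irgm1 led at 23.5 ± 1.75 RPKM, followed by Gbp2 at 15.1 ± 0.570, Gbp6 at 14.7 ± 1.15, Gbp7 at 12.7 ± 0.470 and Irgm2 at 11.6 ± 0.625 (SD, n = 3). Then came Igtp at 9.46 ± 0.567 RPKM, Gbp4 at 3.44 ± 0.176, Gbp5 at 1.33 ± 0.0318 and Gbp3 at 0.356 ± 0.0601, with Iigp1 near 0. Gbp2 and Gbp6 overlapped there. Gbp4 was thus the seventh-ranked of the members in uLN and the next after Gbp6 in mLN.

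Upstream in the pathway, the receptor genes moved modestly. Of 8 tested interferon receptor and JAK genes, 4 were higher, 2 lower and 2 not called, so 75% were called, against 67.4% of all tested genes. Ifngr2, the signalling chain of the interferon gamma receptor, had 12.0 ± 1.47 CPM in mLN and 7.46 ± 0.947 CPM in uLN (SD, n = 3 each), a 1.60-fold rise, and Ifnar2 of the type I receptor rose 1.45-fold. Ifngr1 rose 1.20-fold (adjusted p = 0.0334 in edgeR's quasi-likelihood test), a call lost without uLN replicate 1, uLN replicate 2 or mLN replicate 1 (adjusted p = 0.127, 0.098 and 0.14), and also in DESeq2 (adjusted p = 0.055) or when lowly expressed genes were kept (0.0547). Jak2 and Il10rb fell by 0.38 and 0.32 on the log2 scale. Ifnar1 and Jak1 were not called (log2 fold changes of 0.01 and 0.03), and Tyk2 rose 1.26-fold. The 6 listed interferon genes themselves, Ifng among them, had no row under their symbols in the count table, so they could not be analysed.

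Among the factors that act on GBP and IRG promoters, Irf1, a direct activator of ISRE-driven genes, rose. It had 89.4 ± 7.34 CPM in mLN and 46.6 ± 3.72 CPM in uLN (SD, n = 3 each), a 1.92-fold rise. Stat2, a transducer of type I interferon signals, fell by 0.57 on the log2 scale. Irf9, the DNA-binding partner of Stat2, had a log2 fold change of -0.21 (adjusted p = 0.0447 in edgeR's quasi-likelihood test), a call lost under 10 alternatives, with adjusted p up to 0.145. Stat3 rose 1.09-fold, a call lost without uLN replicate 1 or uLN replicate 3 (adjusted p = 0.0871 and 0.0738) or when lowly expressed genes were kept. Irf8 had 0.673 ± 0.164 CPM in mLN and 0.836 ± 0.377 CPM in uLN (SD, n = 3 each). Nlrc5, which drives class I genes, was low and rose 1.75-fold (adjusted p = 0.0289 in edgeR's quasi-likelihood test), with adjusted p up to 0.154 under alternatives. In all, 4 of 9 tested genes of this list were higher and 2 lower, so 66.7% were called, against 67.4% of all tested genes. The higher ones numbered 1 without uLN replicate 1 and 2 without uLN replicate 3. The lower ones numbered 1 without mLN replicate 1 or any of the uLN replicates, under each other scaling and in DESeq2.

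Of 9 tested inhibitors of cytokine signalling, 5 were higher and 2 lower. So 77.8% were called, against 67.4% of all tested genes (33.2% higher and 34.2% lower). Socs1, which blocks JAK kinases, had 36.6 ± 1.53 CPM in mLN and 19.0 ± 1.29 CPM in uLN (SD, n = 3 each), a 1.93-fold rise close to that of Irf1. Socs3 rose 5.54-fold and Usp18, which dampens the type I receptor, 1.89-fold. Ptpn6, the phosphatase SHP-1, fell by 0.67 on the log2 scale.

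Other interferon gamma targets did not share a direction. Of 17 tested genes of that list, 9 were higher, 3 lower and 5 not called, and the median of their log2 fold changes was 0.26. So 70.6% were called, where 67.4% of all tested genes were. H2-Ab1, an MHC class II chain, rose 22.3-fold to 27.7 ± 4.27 CPM in mLN, against 1.23 ± 0.388 CPM in uLN (SD, n = 3 each). Serpina3g and Icam1 rose 2.77-fold and 2.08-fold, while the proteasome subunit Psmb10 fell by 2.03 on the log2 scale. The chemokines Cxcl9 and Cxcl10 had too few reads to be tested.

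**Figure D4:**
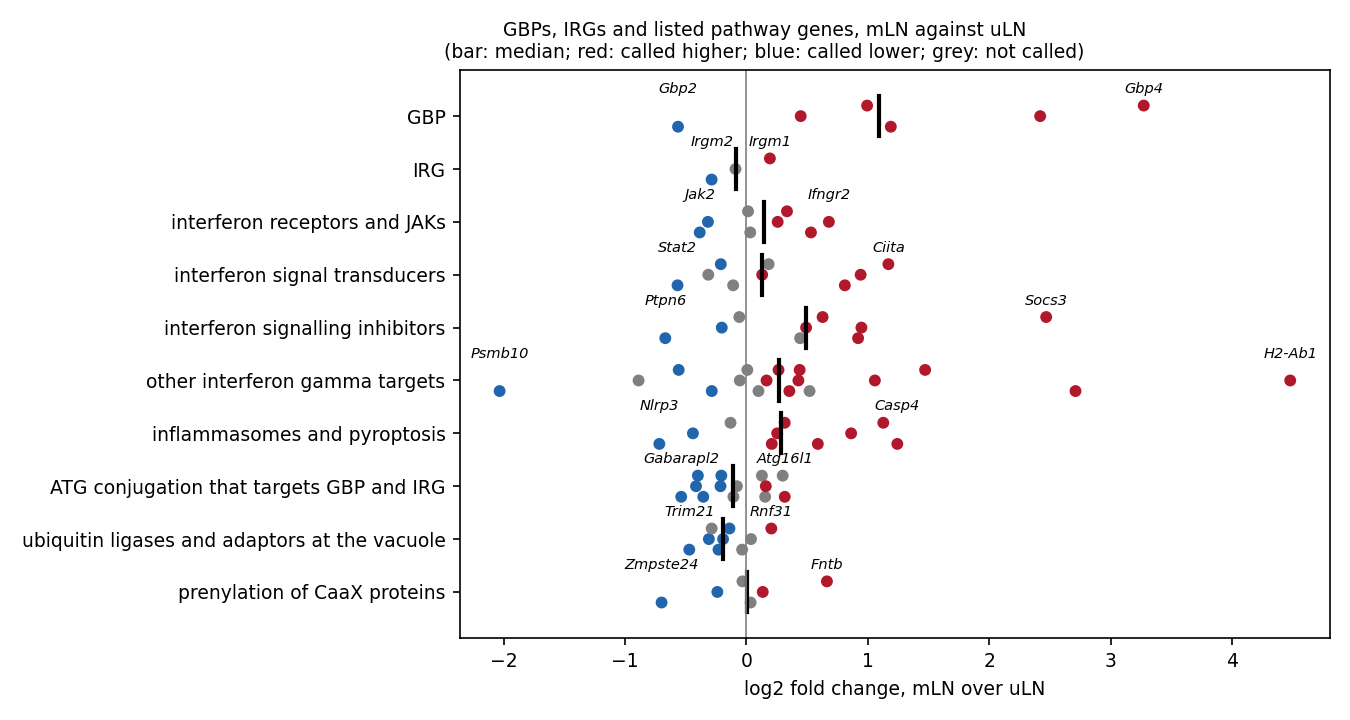
Log2 fold change (mLN over uLN) of every tested gene in the GBP and IRG members and in 8 pathway lists, 1 point per gene, with the list median as a bar and the genes at both ends named. The GBP median of 1.09 lies to the right of the other lists and the IRG median is -0.09.

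Partners of GBP and IRG action were next. GBPs work with inflammasomes, and of 10 tested inflammasome and pyroptosis genes 7 were higher and 2 lower in mLN. Aim2, the sensor of cytosolic DNA that GBPs of chromosome 3 help to activate in mouse macrophages, had 630 ± 55.5 CPM in mLN and 346 ± 3.91 CPM in uLN (SD, n = 3 each), a 1.82-fold rise. Casp4, the mouse receptor for cytosolic lipopolysaccharide, rose 2.37-fold and Gsdmd, the pore-forming protein of pyroptosis, 1.503-fold, while Nlrp3 fell by 0.72 on the log2 scale.

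The products of the ATG conjugation genes direct GBPs and IRGs to vacuoles. Of 13 tested, 2 were higher, 6 lower and 5 not called, where 33.2% of all tested genes were higher and 34.2% lower. The median log2 fold change of this list was -0.11, and its counts moved with the settings. Higher ones numbered 1 without uLN replicate 1 or uLN replicate 2. Gabarapl2 fell by 0.54, Atg3 by 0.41, Map1lc3b by 0.40 and Sqstm1 by 0.35 on the log2 scale. Of 9 tested ubiquitin ligases and adaptors, 1 was higher (2 without mLN replicate 3) and 5 lower (3 without uLN replicate 3), with Trim21 falling by 0.47 and Ubb by 0.31, and Rnf31 rising 1.15-fold. Among 6 genes for prenylation, the lipid modification that anchors Gbp2 and Gbp5, 2 were higher and 2 lower. The higher ones numbered 1 without mLN replicate 1 or any of the uLN replicates, in DESeq2 and with the replicate block. Fntb, the beta subunit of farnesyltransferase, rose 1.58-fold and its partner Fnta fell by 0.24. Pggt1b and Rce1 were not called (log2 fold changes of -0.03 and 0.03). Icmt, which methylates prenylated proteins, rose 1.098-fold (adjusted p = 0.0365 in edgeR's quasi-likelihood test), with adjusted p up to 0.116 under alternatives, and Zmpste24 fell by 0.70. In each of these lists the share of called genes, from 61.5% to 90%, is to be read against 67.4% of all tested genes.

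The genes whose profile over the 6 libraries was closest to that of Gbp4, by Euclidean distance of log2 CPM from the uLN mean among genes outside the family with at least 5 CPM, were Gda (distance of 0.093), H2-Oa (0.196), Spns2 (0.255), Ube2v2 (0.296) and Mcf2l (0.324). Within the family Gbp8 lay at 0.306 and Gbp6 at 1.51. For the mean profile of the 9 tested members the closest genes were Taz, Tmsb4x, Plin3, Tbc1d8 and Slx1b, at distances of 0.042 to 0.081. With 2 groups of 3 libraries, likeness here reflects mostly the size of the group difference.

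The labelled cell type was checked by markers. All 10 listed mast cell markers were in the table, with a summed level of 39538 to 42221 CPM in mLN and 41235 to 43029 CPM in uLN. They did not move together, as Kit fell by 1.31 on the log2 scale while Cma1 and Tpsb2 rose 2.01-fold and 2.06-fold. Library totals ran from 17643916 to 17799420 expected counts. Macrophages express GBPs and IRGs too. Their 9 listed markers summed to 214 to 244 CPM in mLN and 136 to 183 CPM in uLN, with 2 of 8 tested higher (Cd68 3.62-fold and Adgre1 2.28-fold) and 6 lower (Cd163 by 1.40 and Mertk by 1.61 on the log2 scale among them). The 3 complement chains C1qa, C1qb and C1qc averaged 0.376, 0.635 and 0.596 CPM in mLN and 0.379, 1.24 and 1.35 CPM in uLN. The dendritic cell list summed to 2.91 to 3.59 CPM in mLN and 2.28 to 2.82 CPM in uLN, the B cell list to 0.402 to 0.723 CPM in mLN and 0.395 to 0.574 CPM in uLN, and the T cell list to 2.58 to 3.61 CPM in mLN and 4.48 to 5.18 CPM in uLN. The NK and innate lymphoid list summed to 1076 to 1478 CPM in mLN and 1426 to 1724 CPM in uLN, nearly all of it Gzmb, which mast cells can also make, with Ncr1 and Prf1 under 1 CPM. Eomes, also on that list, was present at 19.0 ± 3.65 CPM in mLN and 16.0 ± 0.354 CPM in uLN (SD, n = 3 each) and was not called. The part of other cells in the changes of the GBPs was not tested, and in bulk libraries fewer cells of a type and less RNA per cell cannot be told apart.

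Most of the fibroblast, epithelial and melanocyte markers peaked in mLN replicate 1. The fibroblast marker Pdgfrb did not, with 6.41, 6.06 and 6.37 CPM in mLN replicates 1, 2 and 3 and 19.0, 16.4 and 17.2 CPM in uLN. Pdgfrb was called lower in mLN, and the epithelial marker Epcam had 0 reads in mLN replicate 1. Of the melanocyte markers, Dct had 82, 7 and 13 reads in mLN replicates 1, 2 and 3 and 3, 8 and 1 in uLN, and Tyrp1 had 52, 2 and 5 reads in mLN and 1, 6 and 0 in uLN, while Tyr did not peak there. The fibroblast and epithelial sums ran from 17.96 to 110 CPM and from 13.3 to 121 CPM in mLN, and from 20.8 to 29.4 CPM and from 6.65 to 14.6 CPM in uLN. Gbp4 was lowest of the mLN libraries in that replicate, and without it the log2 fold changes were 3.32 for Gbp4, 2.41 for Gbp6 and -0.56 for Gbp2. The neutrophil, endothelial and melanocyte lists summed to 15.8 to 17.9, 588 to 635 and 7.06 to 15.6 CPM in mLN, and to 17.96 to 22.8, 581 to 604 and 5.51 to 6.97 CPM in uLN. The endothelial sum was nearly all Pecam1.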

How the data were processed

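Mast cell RNA from 3 mLN and 3 uLN samples was sequenced as mRNA libraries (BGI DNBSEQ kit, per the labels' protocols). The tools named are TopHat, cutadapt and FastQC, and the build GRCm38, per the submitters' processing notes. No source used here gives the counting tool, its strand setting or any version, so reads of a gene and of an overlapping antisense gene cannot be told apart. The values the authors deposited are, to judge from their fractions, estimated counts per gene, with no scaling stated. In each library 32.2% to 32.8% of them were fractional and were rounded before testing. Of 17891 rows, 1 without a gene name was dropped. Library totals ran from 17643916 to 17799420.

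mLN was compared with uLN in edgeR 4.0.16 (R 4.3.3) by its quasi-likelihood test, with TMM factors, the default expression filter and Benjamini-Hochberg adjustment. The standard error is the size of the log2 fold change over the square root of F. The script was first tested on simulated data. Alternatives were other scaling, other filters, DESeq2 1.42.0, rounding down, a replicate block, each library left out in turn, paralog rows summed and, added later, a test of a fold over 1.5. CPM and RPKM were computed here with the TMM factors, RPKM from GENCODE M21 transcript lengths. Coordinates and promoters are from RefSeq GRCm38.p6. Floors of 3 reads cover counting error only, as reads carry no molecular identifiers.

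The members and lists were chosen with earlier results of these data known. Named are all members and family rows, up to 4 genes per pathway list with at least 1 CPM in the order of adjusted p, 14 signalling genes in any case, and the 5 genes nearest to Gbp4 and to the members' mean. Of the marker lists the sums are given, with some single markers. Pggt1b and Rce1 are named besides, so that the whole prenylation list is given. Some genes that this rule names are not reported here. A planned search for protein motifs was not run.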

Additional observations from a re-analysis of the deposited data

How the results depend on the processing

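The calls of 8 of the 9 tested members kept their direction and their side of the threshold under the other scalings, both other filters where the gene was still tested, rounding down, DESeq2, the replicate block and the omission of each library. The exception was Irgm1, as given above. Without 1 library at a time, 5 to 6 members were called higher and 2 lower, the log2 fold change of Gbp4 ran from 3.21 to 3.32, that of Gbp6 from 2.38 to 2.48, that of Gbp2 from -0.60 to -0.54, and over all genes 3843 to 4403 were higher and 4017 to 4492 lower. The main counts were 4219 and 4347. With the test of a fold over 1.5, 3 members were higher and 0 lower (0 at an unadjusted p under 0.05), and 1496 genes were higher and 1169 lower. When the rows of a cluster were summed, the value for Gbp2 turned to 0.23 and that for Irgm1 to -0.16, since each sum also holds the other rows. Replicate numbers gave no sign of pairing between the groups, but so few libraries cannot exclude it. Deviations from the group means correlated at 0.02, -0.15 and -0.01 for the numbers 1, 2 and 3, and the fit with a replicate block called 6 members higher and 2 lower, and 4122 genes higher and 4263 lower. Scaling moved the median log2 fold change of all genes to 0.02 at most. Some list counts moved by more than 1.5 times, those named above and these: higher ATG genes numbered 4 with library totals only or the filter of 5 CPM and 1 with no filter, higher transducers 2 with no filter or in DESeq2, lower transducers 1 with the filter of 5 CPM, and higher prenylation genes 1 with no filter. Gbp3, Gbp10 and Iigp1 rest on few reads, and their values are limited by depth. The 3 mLN and 3 uLN libraries may be technical repeats.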
